A study of Homo sapiens with 8 samples.

Results

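Replication-dependent histone genes are the 56 genes of the count table whose symbols begin with HIST1H, HIST2H, HIST3H or HIST4H, of 15982 genes in all. The 4 rows of this naming that are pseudogenes (HIST2H3DP1, HIST1H2APS4, HIST2H2BC and HIST2H2BA) were left out. By class the members are 5 linker histone H1 genes, 13 H2A genes, 16 H2B genes, 11 H3 genes and 11 H4 genes. By position, 46 belong to the HIST1 cluster on chromosome 6, 7 to HIST2 and 2 to HIST3 on chromosome 1, and 1 to HIST4 on chromosome 12. All 56 passed the filter on low counts, as did 15905 genes of the table. In 7 members fewer than 50% of 100-base stretches were unique among annotated transcripts (HIST1H2AI, HIST1H2AJ, HIST1H4J, HIST1H4K, HIST2H2AA3, HIST2H3A and HIST2H3D). A further set of 7, sharing HIST2H3A with the first, overlap an annotated gene on the other strand (HIST1H2AK, HIST1H2BD, HIST1H2BE, HIST1H2BN, HIST2H2AB, HIST2H2BF and HIST2H3A), and values of both sets are uncertain. On the same strand, HIST1H2AL and HIST1H2BN overlap each other. HIST1H2BD overlaps LARP1P1 there, HIST1H3J overlaps HIST1H2AM and HIST2H2BF overlaps AC243772.2, so these values are uncertain too. The testis histone genes HIST1H1T, HIST1H2AA, HIST1H2BA and HIST3H3 were not analysed here.

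The study transfected 143BTK- cells, a human osteosarcoma line without thymidine kinase, with a synthetic hsa-miR-101-3p mimic or with Negative Control #1, a mimic supplied as a control. In both groups the cells received 80 pmol of mimic, were transfected again at 48 h and were harvested at 120 h. The medium held no glucose, 10 mM galactose in its place, and dialysed serum at 5%. Each group has 4 libraries of total RNA, numbered 1 to 4, and the labels give 4 independent transfection experiments, and ribosomal RNA was removed before sequencing. All cells come from this 1 line, and thymidine kinase, the enzyme that salvages thymidine, is lacking in both groups.

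Total counts ran from 17603054 to 20160267 per library. The summed level of 6 mesenchymal and osteoblast markers, vimentin (VIM) and SPARC among them, was 1008 to 2164 CPM (counts scaled to a common library size, per 1000000) in miR-101 libraries and 997 to 1534 CPM in control libraries. By mean over all libraries SPARC had 753 CPM and VIM 625 CPM, against 9.90 CPM for COL1A1, the lowest of the 6. The log2 fold change, miR-101 over control, was positive in 5 of them and negative in VIM. COL1A2 and ALPL of that list were not analysed here. Of 4 epithelial markers, KRT18 had 256 to 473 CPM with miR-101 and 229 to 295 CPM in controls, EPCAM had 9.30 to 17.0 CPM with miR-101 and 5.11 to 10.0 CPM in controls, and CDH1 and KRT19 were not analysed here. Libraries 1 and 2 of a group lay closer to each other than any other libraries of the group did. Their mean chi-square per gene was 3.81 with miR-101 and 4.67 in controls, against 14.5 to 69.6 for the other pairs within a group, where counting error alone gives 1. They were kept as separate replicates because the labels give 4 independent experiments, and the values do not show whether they are independent. With libraries 1 and 2 of each group summed, edgeR called 106 genes higher and 67 lower, against 525 and 528 with all libraries separate, and 0 histone members in either fit.

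Core histones H2A, H2B, H3 and H4 form the spool around which DNA is wrapped, and H1 binds the linker DNA between spools. Most of the supply for newly copied DNA comes from clustered genes that are transcribed in S phase. Their mRNAs usually carry no poly(A) tail and end after a conserved stem-loop, which is bound by stem-loop binding protein (SLBP). When DNA synthesis stops, these mRNAs are rapidly degraded. Some of the genes also give longer, polyadenylated transcripts, which are known from differentiated cells.

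The mature miRNA delivered by the mimic is shown because its seed, bases 2 to 8, defines the sites it can pair with. The sequence is RefSeq's, on GRCh38.p14 at chr9:4850345-4850365 on the plus strand, with the seed in capitals.
hsa-miR-101-3p: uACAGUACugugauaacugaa

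The complement of that seed, GTACTGT, was searched in the longest annotated 3′ UTR (GENCODE 29) of each gene. It was present in 1 of the 30 histone members with an annotated 3′ UTR, HIST1H3H, which is 3.33% of them. The share was 13.1% of the 12221 genes of the table with such a UTR. The median UTR searched was 796 bases among the members and 1706 bases over all genes. HIST1H3H, an H3 gene, stood at 0.12 ± 0.215 on the log2 scale (miR-101 over control, SE; edgeR adjusted p = 0.780). Of the 816 bases of its UTR, 769 lie after the stem-loop, where the usual histone mRNA ends. On which side of the stem-loop its match lies was not recorded. For the other 26 members no 3′ UTR is annotated, so none was searched. Among these, HIST1H3F holds GTACTGT in its coding sequence. A shorter match to the seed, followed by an A, lies in the 3′ UTR of HIST4H4. Matches of these other kinds were not counted over all genes.

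The stem-loop is shown because it defines the mRNAs studied. A stem-loop of the histone form was found in annotated transcripts of 26 members, in 5 spellings, starting 23 to 68 bases after the stop codon. One gene is given per spelling, in transcript sense from GENCODE 29 (GRCh38), with the stem-loop in capitals.
HIST1H2BH: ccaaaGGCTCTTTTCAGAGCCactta
HIST4H4: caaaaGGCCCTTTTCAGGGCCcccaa
HIST1H3G: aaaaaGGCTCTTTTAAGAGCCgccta
HIST1H2AG: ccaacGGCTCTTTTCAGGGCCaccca
HIST1H4I: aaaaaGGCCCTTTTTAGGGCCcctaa

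The first spelling was found in 15 members, the second in 5 and the third in 4, while the other two were found in 1 member each. The second spelling was found in H4 genes. No stem-loop was found in the annotated transcripts of the H1 genes, of which HIST1H1E alone has an annotated 3′ UTR.

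The comparison of miR-101 with the negative control asks how the mimic altered the cells' RNA at 120 h. Most histone genes lay somewhat higher with miR-101, but none passed the test over all genes. Of the 56 members, 50 had a positive log2 fold change (89.3%, against 49.3% of all genes tested). The median was 0.29 on the log2 scale, against -0.01 over all genes tested. Without library miR-101 4 it was 0.02, with 31 of 55 members positive. In the edgeR quasi-likelihood test with Benjamini-Hochberg adjustment over 15905 genes, 0 members were called higher, where 3.3% of all genes were, and 0 were called lower, where 3.32% were. The threshold for a call was an adjusted p below 0.05, which 6.62% of all genes passed in either direction. At an unadjusted p under 0.05, edgeR gave 10 members higher (17.9%, against 11.4% of all genes) and 0 lower (10.9% of all genes). DESeq2 called 1 member, HIST2H2AC, where it called 5.27% of all genes higher.

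The labels give 4 experiments and 4 replicate numbers, and deviations of same-numbered libraries correlated positively. Some differently numbered libraries correlated more, miR-101 4 with control 3 at r = 0.391 against 0.209 with control 4. The pairing by number is therefore uncertain. With the replicate number as a block, edgeR called 3 members higher and 0 lower, against 5.55% and 4.99% of all genes. These were HIST1H1D, HIST1H2BJ and HIST1H2BH. Within same-numbered pairs, 18 members were higher with miR-101 in 4 of 4 pairs (32.1%, against 18.1% of all genes). A further 32 were higher in 3 pairs, 4 in 2 pairs and 2 in 1 pair, HIST3H2BB and HIST1H2BM, the last named after its values were seen. In 2 members, HIST2H2AC and HIST2H3A, all 4 miR-101 libraries lay above all 4 control libraries (3.57%, against 7.76% of all genes). No member had the reverse separation, which 7.34% of all genes had.

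Histone mRNA summed over all members was 6940, 7309, 6482 and 10609 CPM in miR-101 libraries 1 to 4, against 5558, 5664, 6418 and 8413 CPM in control libraries 1 to 4. The means were 7835 ± 1880 CPM with miR-101 and 6513 ± 1323 CPM in controls (SD, n = 4 each), a ratio of 1.2. Library 4 was highest in both groups, and the groups overlapped. Within pairs the ratio was 1.25, 1.29, 1.01 and 1.26 for numbers 1 to 4. Of all counts, histone genes took 0.657% to 0.978% in miR-101 libraries and 0.557% to 0.896% in control libraries. In this bulk RNA, a difference in the share of cells in S phase and a difference in histone RNA per cell cannot be told apart.

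**Figure D1:**
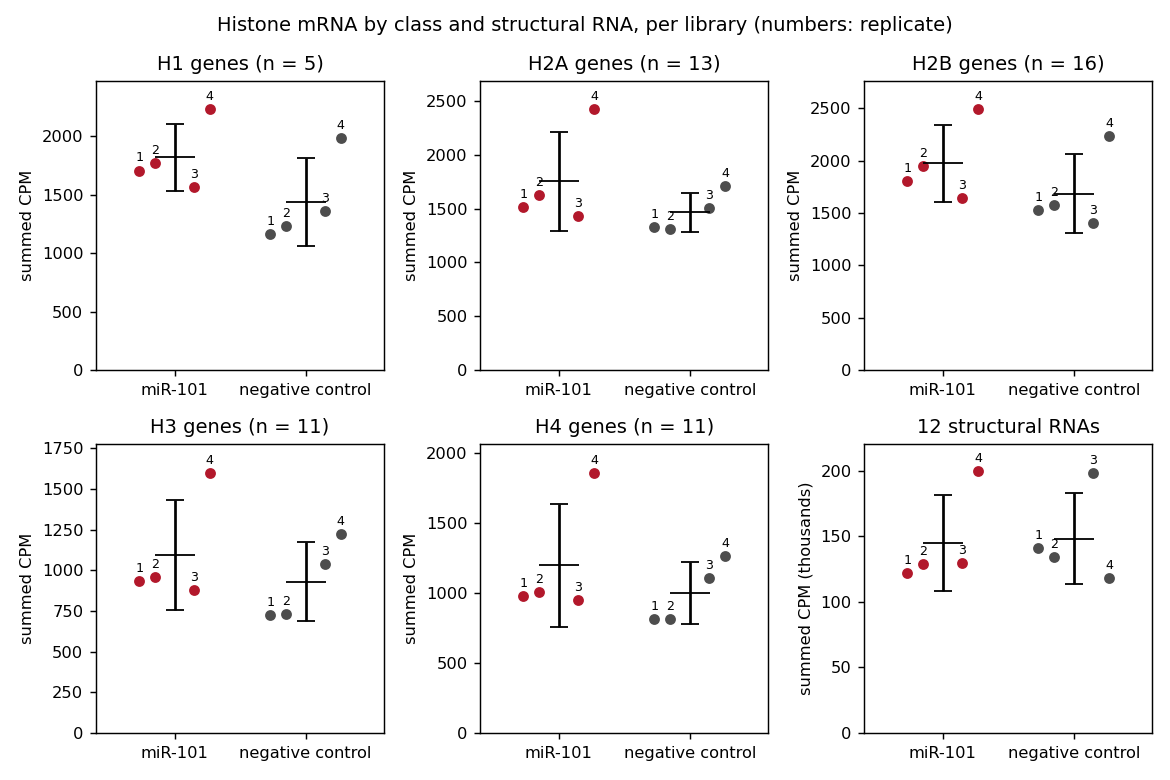
Summed CPM of the members of each histone class, and of 12 structural RNAs in units of 1000 CPM, in each miR-101 library (red, left) and each control library (grey, right), with replicate numbers and bars for mean ± SD (n = 4). Library miR-101 4 lies highest for H4 at 1855 CPM, while structural RNA is highest in miR-101 4 and negative control 3.

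The H1 genes encode linker histones, and all 5 had a positive log2 fold change, with a median of 0.38. HIST1H1D measured 167, 178, 142 and 220 CPM in miR-101 libraries 1 to 4, against 88.8, 89.9, 102 and 177 CPM in control libraries 1 to 4. The first 3 control libraries lay below all miR-101 libraries, and control 4 lay among them. Its log2 fold change, the highest of the 56 members, was 0.63 ± 0.222 (SE; edgeR adjusted p = 0.125). With the replicate block it was 0.67 ± 0.130 (edgeR adjusted p = 0.0170).

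HIST1H1C, the H1 gene with the highest count level, had 591, 595, 502 and 656 CPM with miR-101 and 409, 429, 446 and 605 CPM in controls. HIST1H1E had 532, 569, 529 and 629 CPM with miR-101 and 391, 426, 436 and 630 CPM in controls. In both genes control 4 reached the miR-101 levels while the other controls lay below all of them. The log2 fold changes were 0.31 ± 0.141 for HIST1H1C (edgeR adjusted p = 0.224) and 0.26 ± 0.149 for HIST1H1E (edgeR adjusted p = 0.334). Without library control 4, edgeR called HIST1H1D (0.92, adjusted p = 0.00486), HIST1H1C (0.45, adjusted p = 0.0302) and HIST1H1E (0.44, adjusted p = 0.0259). That fit also called HIST1H2BH and, over all genes, 4.21% higher. The same 4 members were called without pair 4, a setting added after seeing the data, where 4.62% of all genes were called higher.

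HIST1H1B had 405, 418, 383 and 707 CPM with miR-101, against 266, 281, 365 and 561 CPM in controls. Library 4 was high in both groups, and the difference was 0.38 ± 0.260 (edgeR adjusted p = 0.427). Summed over the class, H1 mRNA was 1819 ± 286 CPM with miR-101 and 1436 ± 377 CPM in controls (SD, n = 4 each), a ratio of 1.27. The ratio was 1.47, 1.44, 1.15 and 1.12 in pairs 1 to 4. H1 made up 23.5% of histone CPM with miR-101 and 21.9% in controls.

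Among the H2A genes 12 of 13 had a positive log2 fold change, with a median of 0.17. HIST2H2AC had 402, 422, 328 and 509 CPM in miR-101 libraries 1 to 4, against 322, 296, 315 and 295 CPM in control libraries 1 to 4. The groups did not overlap, and the gap between the lowest miR-101 library and the highest control was small. The log2 fold change was 0.44 ± 0.129 (edgeR adjusted p = 0.0725), and the DESeq2 adjusted p was 0.0293. Without library miR-101 3 edgeR called it (0.53, adjusted p = 0.0385), where 2.15% of all genes were called higher. Per kilobase of annotated exon HIST2H2AC had the highest level of the members, at a mean of 1065 CPM with miR-101 and 787 CPM in controls. This rank depends on annotated length, which is 390 bases of coding sequence here and up to 5477 bases in other members (HIST1H2BN). Of the 100-base stretches of HIST2H2AC, 82.8% were unique among annotated transcripts.

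HIST1H2AG had 257, 284, 244 and 400 CPM with miR-101, against 210, 209, 249 and 258 CPM in controls, and control 4 lay above miR-101 1 and 3. It stood at 0.36 ± 0.159 (edgeR adjusted p = 0.217). HIST2H2AB stood at 0.37 ± 0.182 (edgeR adjusted p = 0.259), with BOLA1 on the other strand. HIST1H2AE had 168, 184, 171 and 289 CPM with miR-101 and 158, 175, 168 and 284 CPM in controls, a difference of 0.05 ± 0.222 (edgeR adjusted p = 0.926). Library 4 was high in both groups by about the same amount.

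HIST1H2AL was the H2A gene below 0, at -0.16 ± 0.299 (edgeR adjusted p = 0.800), with 12.4 CPM or less in every miR-101 library and 17.6 CPM in control 4. It overlaps HIST1H2BN on the same strand, so its value is uncertain. HIST2H2AA3 had counts of 9, 7, 11 and 14 with miR-101 and 2, 10, 5 and 12 in controls, and none of its 100-base stretches was unique among annotated transcripts, so its value is uncertain. H2A mRNA summed to 1751 ± 457 CPM with miR-101 and 1464 ± 184 CPM in controls, with pair ratios of 1.14, 1.24, 0.951 and 1.42.

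The H2B genes were the most divided class in direction, with 12 of 16 members positive and a median of 0.23. HIST1H2BJ had 212, 223, 134 and 265 CPM in miR-101 libraries 1 to 4, against 159, 162, 107 and 156 CPM in control libraries 1 to 4. Number 3 was lowest in both groups, and within each pair the miR-101 library was higher. The log2 fold change was 0.51 ± 0.201 (edgeR adjusted p = 0.162), and 0.49 ± 0.101 with the replicate block (edgeR adjusted p = 0.0216).

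HIST1H2BH was named after its values were seen. It had 27.7, 26.7, 30.4 and 41.7 CPM with miR-101, against 21.1, 17.0, 22.7 and 34.0 CPM in controls, higher in each pair. It stood at 0.42 ± 0.214 (edgeR adjusted p = 0.283), and at 0.44 ± 0.104 with the replicate block (edgeR adjusted p = 0.0346). HIST1H2BD, at 0.26 ± 0.162 (edgeR adjusted p = 0.375), and HIST1H2BG, at 0.26 ± 0.175 (edgeR adjusted p = 0.411), lay near the class median.

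At the other end, HIST3H2BB had 10.6, 11.8, 8.27 and 9.91 CPM with miR-101 and 11.4, 12.7, 7.57 and 22.9 CPM in controls. Control 4 lay apart from the other libraries of this gene, and the log2 fold change, the lowest of the members, was -0.43 ± 0.283 (edgeR adjusted p = 0.405). HIST2H2BF had 161, 161, 141 and 185 CPM with miR-101 and 137, 152, 122 and 278 CPM in controls, a difference of -0.09 ± 0.229 (edgeR adjusted p = 0.860). It was higher with miR-101 in pairs 1 to 3 and lower in pair 4, and it overlaps FCGR1A on the other strand. H2B mRNA summed to 1975 ± 370 CPM with miR-101 and 1687 ± 374 CPM in controls, with pair ratios of 1.18, 1.24, 1.17 and 1.12.

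All 11 H3 genes had a positive log2 fold change, with a median of 0.30. HIST1H3B, the H3 gene with the highest count level, had 301, 301, 299 and 485 CPM with miR-101, against 257, 245, 355 and 416 CPM in controls. The groups overlapped, and the difference was 0.12 ± 0.209 (edgeR adjusted p = 0.773). HIST1H3I had 73.8, 79.6, 51.1 and 105 CPM with miR-101, against 46.7, 46.4, 55.4 and 66.5 CPM in controls. It was higher in pairs 1, 2 and 4 and lower in pair 3, at 0.53 ± 0.201 (edgeR adjusted p = 0.152).

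HIST1H3G had 174, 180, 155 and 344 CPM with miR-101 and 120, 129, 196 and 224 CPM in controls, and stood at 0.35 ± 0.274 (edgeR adjusted p = 0.489). HIST2H3D stood at 0.34 ± 0.188 (edgeR adjusted p = 0.324) and HIST1H3E at 0.04 ± 0.153 (edgeR adjusted p = 0.916). HIST2H3A had 0.912, 1.05, 0.930 and 1.03 CPM with miR-101 and 0.769, 0.575, 0.807 and 0.621 CPM in controls. Its groups did not overlap, at 0.51 ± 0.224 (edgeR adjusted p = 0.216). None of its 100-base stretches is unique among annotated transcripts and it overlaps HIST2H4B on the other strand, so this value is uncertain. H3 mRNA summed to 1094 ± 339 CPM with miR-101 and 929 ± 244 CPM in controls, with pair ratios of 1.29, 1.32, 0.847 and 1.31.

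Among the H4 genes 10 of 11 had a positive log2 fold change, with a median of 0.36. HIST1H4D had 186, 205, 199 and 424 CPM in miR-101 libraries 1 to 4, against 159, 162, 264 and 236 CPM in control libraries 1 to 4. Library miR-101 4 stood far above the others, and in pair 3 the control was higher. The log2 fold change was 0.31 ± 0.271 (edgeR adjusted p = 0.550). HIST1H4C had the same arrangement, with 154, 156, 174 and 379 CPM with miR-101 and 134, 128, 218 and 206 CPM in controls (0.33 ± 0.299, edgeR adjusted p = 0.556). Without library miR-101 4 their log2 fold changes were -0.07 for HIST1H4D and -0.09 for HIST1H4C.

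HIST4H4, the single gene of the HIST4 cluster, had 90.3, 95.5, 69.9 and 118 CPM with miR-101, against 75.1, 63.9, 75.7 and 56.8 CPM in controls. Pair 3 went the other way from the other 3 pairs, and the difference was 0.46 ± 0.159 (edgeR adjusted p = 0.116). HIST1H4J stood at 0.51 ± 0.194 (edgeR adjusted p = 0.148), with under 50% of its 100-base stretches unique. HIST1H4E stood at -0.05 ± 0.254 (edgeR adjusted p = 0.929), and was 0.01 with the replicate block. H4 mRNA summed to 1195 ± 440 CPM with miR-101 and 998 ± 224 CPM in controls, with pair ratios of 1.2, 1.23, 0.862 and 1.47.

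**Figure D2:**
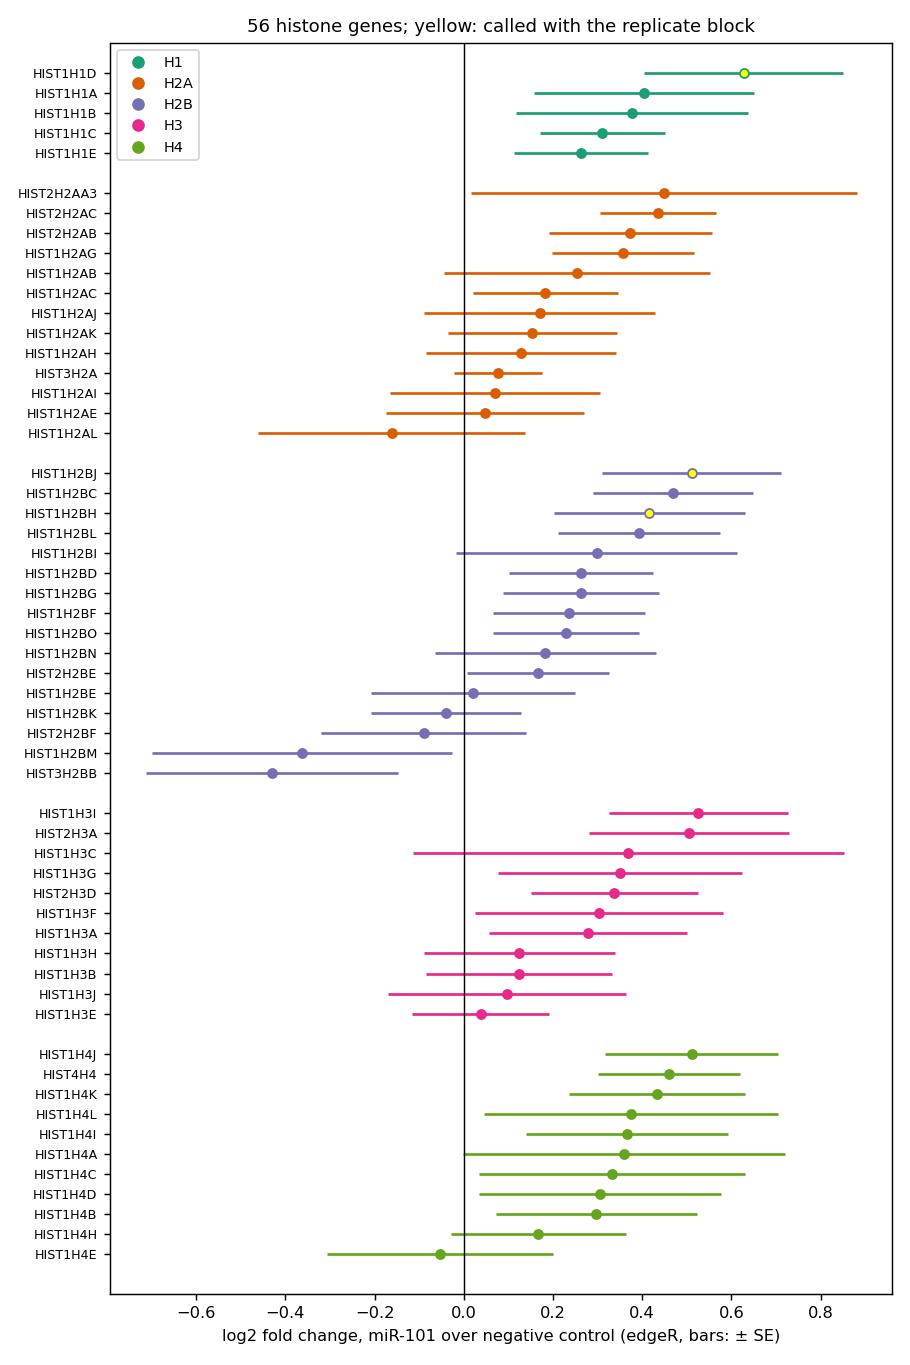
Log2 fold change, miR-101 over negative control, of each of the 56 members by class, with bars for ± SE from edgeR (4 libraries per group). Values run from -0.43 for HIST3H2BB to 0.63 for HIST1H1D, 50 lie above 0, and the 3 yellow points are the genes called with the replicate block.

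By cluster, HIST1 held 83.6% of histone CPM with miR-101 and 83.7% in controls. HIST1 summed to 6564 ± 1678 CPM with miR-101 and 5462 ± 1192 CPM in controls, and 42 of its 46 genes had a positive log2 fold change (median 0.27). HIST2 summed to 1136 ± 185 CPM with miR-101 and 940 ± 135 CPM in controls, with 6 of 7 genes positive (median 0.37). HIST3, with HIST3H2A and HIST3H2BB, summed to 41.6 ± 3.07 CPM with miR-101 and 43.4 ± 6.81 CPM in controls. HIST3H2A varied little, from 28.3 to 33.7 CPM with miR-101 and 29.1 to 30.0 CPM in controls (0.08 ± 0.0979, edgeR adjusted p = 0.689).

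The HIST1 cluster lies in 3 stretches of chromosome 6 (GRCh38). The first, chr6:26017085-26285638, holds 26 members with a median log2 fold change of 0.29. The middle one, chr6:27125897-27147515, holds 5 with a median of 0.36, and the last, chr6:27807444-27893843, holds 15 with a median of 0.18. No test between the stretches was made.

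Several H2A and H2B genes stand back to back and share the DNA between them. The octamer ATTTGCAT, a known element of H2B promoters, was searched on both strands from 250 bases before to 50 bases after each RefSeq gene start. Promoters were matched for 51 members. The octamer was found in 12 of 16 H2B and 8 of 12 H2A promoters, in 0 of 5 H1, 0 of 9 H3 and 0 of 9 H4 promoters, and in 1.8% of all 27305 promoters. In 5 places a single octamer served as the match for both an H2A and an H2B gene. These are printed in the direction of the H2B gene (GRCh38.p14, RefSeq), with the octamer in capitals, because each gives 2 genes with 1 shared control region to compare.
HIST1H2BC with HIST1H2AC: tttcatacctcATTTGCATagctctgccca
HIST1H2BG with HIST1H2AE: ttgaattctttATTTGCATgaaaggcctat
HIST1H2BJ with HIST1H2AG: ctcttcaccttATTTGCATaagcgattcta
HIST1H2BM with HIST1H2AJ: ttctactcctaATTTGCATaataacattta
HIST2H2BE with HIST2H2AC: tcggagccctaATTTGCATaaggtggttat

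These stretches lie at chr6:26124031-26124060, chr6:26216718-26216747, chr6:27132824-27132853 and chr6:27814963-27814992, and at chr1:149886710-149886739. The fourth is on the plus strand and the others on the minus strand. The H2B gene had the higher log2 fold change in 3 of these places, which were chosen after their values were seen. HIST1H2BC stood at 0.47 ± 0.180 and HIST1H2AC at 0.18 ± 0.163. HIST1H2BG stood at 0.26 and HIST1H2AE at 0.05, and HIST1H2BJ at 0.51 and HIST1H2AG at 0.36.

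In the other 2 places the H2A gene had the higher value. HIST2H2BE stood at 0.17 ± 0.159 and HIST2H2AC at 0.44, while HIST1H2BM stood at -0.36 ± 0.336 and HIST1H2AJ at 0.17 ± 0.259. In pair 3 the H2B gene had the higher ratio in all 5 places, with log2 ratios of 0.11 to 0.37 for H2B and -0.24 to 0.06 for H2A. In pair 4 it did so in 3 of 5, with log2 ratios of -0.91 to 0.78 for H2B and 0.02 to 0.79 for H2A. The differences between genes that share a stretch were not tested.

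Other promoter elements were spread differently over the classes. TATAAA was found in 35 of 51 member promoters (68.6%) and in 12% of all promoters. CCAAT was found in 44 of 51 (86.3%) and in 35.7% of all promoters, but in 2 of 9 H4 promoters.

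The classes parted in the pairs numbered 3 and 4, for which the pairing by number is uncertain. In pairs 1 and 2, median log2 ratios were positive in every class, from 0.09 for H2A to 0.61 for H1 in pair 1 and from 0.19 for H2A to 0.55 for H1 in pair 2. In pair 3 the median was 0.22 for H1 and 0.24 for H2B, but -0.12 for H2A, -0.15 for H3 and -0.32 for H4. In that pair 2 of 11 H3 genes and 2 of 11 H4 genes were higher with miR-101, against 15 of 16 H2B genes. In pair 4 the order turned, with medians of 0.85 for H4, 0.41 for H2A, 0.39 for H3, 0.23 for H1 and 0.10 for H2B.

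**Figure D3:**
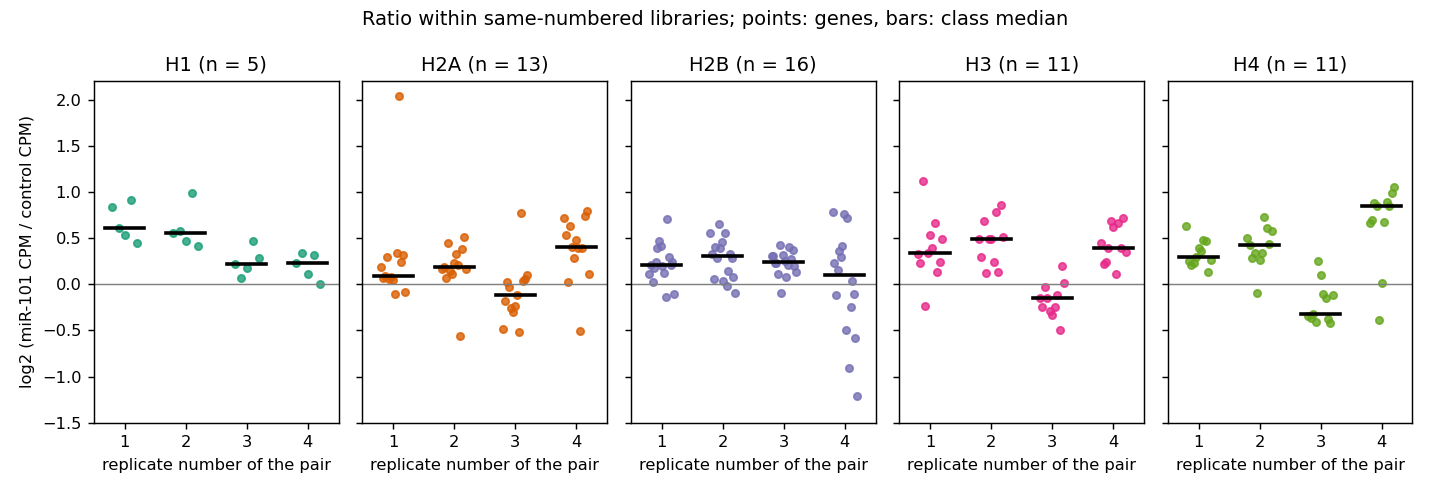
Log2 ratio of CPM, miR-101 over negative control, within same-numbered libraries for each member (points) and the class median (bars), by class. In pair 3 the medians of H2A, H3 and H4 lie below 0 and those of H1 and H2B above it, and in pair 4 H4 has the highest median at 0.85.

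Library 4 carried more histone mRNA than libraries 1 to 3 in every class of both groups, but the order of the classes by excess differed. Library miR-101 4 stood above the mean of miR-101 1 to 3 by a median log2 ratio of 0.91 for H4, 0.69 for H3, 0.68 for H2A, 0.48 for H2B and 0.44 for H1. Library control 4 stood above controls 1 to 3 by 0.37 for H4, 0.54 for H3, 0.45 for H2A, 0.63 for H2B and 0.79 for H1. The class with the highest excess in one group's library 4 thus had the lowest in the other's.

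Structural RNAs without a poly(A) tail, small nuclear RNAs among them, also differed between libraries. The most abundant of the list were RN7SL1 and RN7SL2, at means of 45510 and 35525 CPM over all libraries. The 12 of the list took 12.6%, 13.2%, 13.1% and 18.4% of counts in miR-101 libraries 1 to 4, against 14.2%, 13.8%, 18.1% and 12.6% in control libraries 1 to 4. Library miR-101 4 and library control 3 were thus the richest. Control 4, with the highest histone sum of the controls at 8413 CPM, had their lowest structural RNA share. RNU4-1, the U4 small nuclear RNA, had 173, 225, 239 and 652 CPM with miR-101 and 142, 197, 299 and 72.0 CPM in controls (0.86 ± 0.465, edgeR adjusted p = 0.310). H4 and H3 mRNA were high, relative to H1 and H2B, in those same 2 libraries. The part of structural RNA content in the histone differences was not tested.

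Leaving these 2 libraries out was an alternative chosen after seeing the data. In it 35 of 56 members had a positive log2 fold change and the median was 0.06. EdgeR called 0 members, where it called 3.68% of all genes higher. At an unadjusted p under 0.05 it gave 2 members, and the share of all genes at that level was not counted. Without any single library other than miR-101 4 the median lay between 0.19 and 0.41. HIST1H1D stood at 0.45 ± 0.255 without the 2 libraries (edgeR adjusted p = 0.316). Libraries 1 and 2 of a group lay closest and may not be independent, so a fit on them may understate the spread. In libraries 1 and 2 alone, edgeR called 37 of 55 members higher, where it called 16% of all genes higher. In libraries 3 and 4 alone it called 0 members, and 0.0379% of all genes higher.

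A split by the annotated transcript was also made after values were seen. In 18 members the annotation runs at least 200 bases beyond the stem-loop, and their median log2 ratios were 0.25, 0.28, 0.12 and 0.13 in pairs 1 to 4. In the other 38 members they were 0.27, 0.40, -0.11 and 0.40. These 38 include the 26 members without an annotated 3′ UTR, whose transcript end is not known here. They also include HIST1H3E and HIST1H2BJ, with 3′ UTRs of 1908 and 569 bases but no stem-loop found, so the split follows the annotation. The median log2 fold changes were 0.18 for the 18 members and 0.30 for the others. Single members with a longer transcript varied widely, HIST3H2BB from -1.21 to 0.13 and HIST4H4 from -0.12 to 1.05 between pairs, and the split was not tested. The counts do not tell which transcript form was read.

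None of the listed factors that make and degrade histone mRNA was called. Of 21 such genes, edgeR called 0 higher and 0 lower, and the median log2 fold change was -0.03. DESeq2 gave the same 0 calls. At an unadjusted p under 0.05, edgeR gave 2 higher and 4 lower, against 11.4% and 10.9% of all genes. SLBP, which binds the stem-loop, had 68.0, 63.7, 74.9 and 66.5 CPM with miR-101 and 74.0, 73.3, 76.0 and 83.1 CPM in controls (-0.17 ± 0.0948, edgeR adjusted p = 0.335). NPAT, the coactivator of histone gene transcription in S phase, had 53.0, 46.4, 51.1 and 51.4 CPM with miR-101 and 58.8, 62.4, 70.6 and 56.3 CPM in controls. The NPAT groups did not overlap, at -0.30 ± 0.103 (edgeR adjusted p = 0.116).

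XRN1, a cytoplasmic exonuclease, stood at 0.39 ± 0.139 (edgeR adjusted p = 0.122) and LSM11, a subunit of the U7 particle that cuts histone pre-mRNA, at 0.32 ± 0.124 (edgeR adjusted p = 0.156). MIF4GD, a translation factor that binds SLBP, stood at -0.39 ± 0.143 (edgeR adjusted p = 0.136).

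Replication-independent histones are mostly made outside the S-phase programme from polyadenylated mRNA. Of 12 genes, edgeR called 0 higher and 2 lower, with a median of -0.08. Over all genes it called 3.3% higher and 3.32% lower. H2AFV, an H2A.Z gene, had 125, 130, 173 and 162 CPM with miR-101, against 217, 224, 243 and 260 CPM in controls, and fell by 0.68 ± 0.126 on the log2 scale (edgeR adjusted p = 0.0107). H3F3C, an H3.3-related gene, fell by 0.44 ± 0.112 (edgeR adjusted p = 0.0436). With the replicate block 3 genes were called lower and 1 higher, against 4.99% and 5.55% of all genes. The higher gene was CENPA, the centromeric H3 variant, named after its values were seen (0.45, edgeR adjusted p = 0.0350).

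H2AFZ, the other H2A.Z gene, had 199, 186, 242 and 293 CPM with miR-101 and 285, 283, 376 and 335 CPM in controls. Within each pair it was lower with miR-101, at -0.47 ± 0.157 (edgeR adjusted p = 0.101, and 0.0228 with the replicate block). H3F3B, which encodes H3.3, stood at -0.32 ± 0.0909 (edgeR adjusted p = 0.0620). The H2A.Z genes thus had group means in the opposite order to most replication-dependent genes.

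Histone chaperones, which carry histones to DNA, had 1 of 23 tested members called lower and 0 higher (median -0.13). The shares over all genes were 3.32% lower and 3.3% higher. The called gene was RBBP7, a histone-binding subunit of several chromatin complexes, at 103, 118, 101.4 and 113 CPM with miR-101 and 174, 158, 176 and 136 CPM in controls. It fell by 0.56 ± 0.111 on the log2 scale (edgeR adjusted p = 0.0136). ASF1B, a chaperone of H3 and H4, stood at -0.75 ± 0.258 (edgeR adjusted p = 0.113), with 27.5 CPM in control 4 and 9.15 to 15.8 CPM in the other 7 libraries. ATRX stood at -0.40 ± 0.143 (edgeR adjusted p = 0.125) and UBN1, a subunit of an H3.3 chaperone complex, at -0.24 ± 0.118 (edgeR adjusted p = 0.259).

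Of 47 S-phase and DNA replication genes, edgeR called 2 lower and 0 higher, against 3.32% and 3.3% of all genes. Their median was -0.11, with 12 genes positive. RRM1, the large subunit of ribonucleotide reductase, had 262, 284, 316 and 364 CPM with miR-101, against 434, 411, 467 and 435 CPM in controls, and fell by 0.51 ± 0.116 (edgeR adjusted p = 0.0260). E2F1, a transcription factor of S-phase entry, fell by 0.45 ± 0.109 (edgeR adjusted p = 0.0338). GINS2, a subunit of the replicative helicase, stood at -0.34 ± 0.104 (edgeR adjusted p = 0.0808) and CCNE1, cyclin E, at -0.40 ± 0.131 (edgeR adjusted p = 0.0994). The histone genes, by their median of 0.29, thus stood higher than the S-phase list at -0.11, a difference that was not tested.

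**Figure D4:**
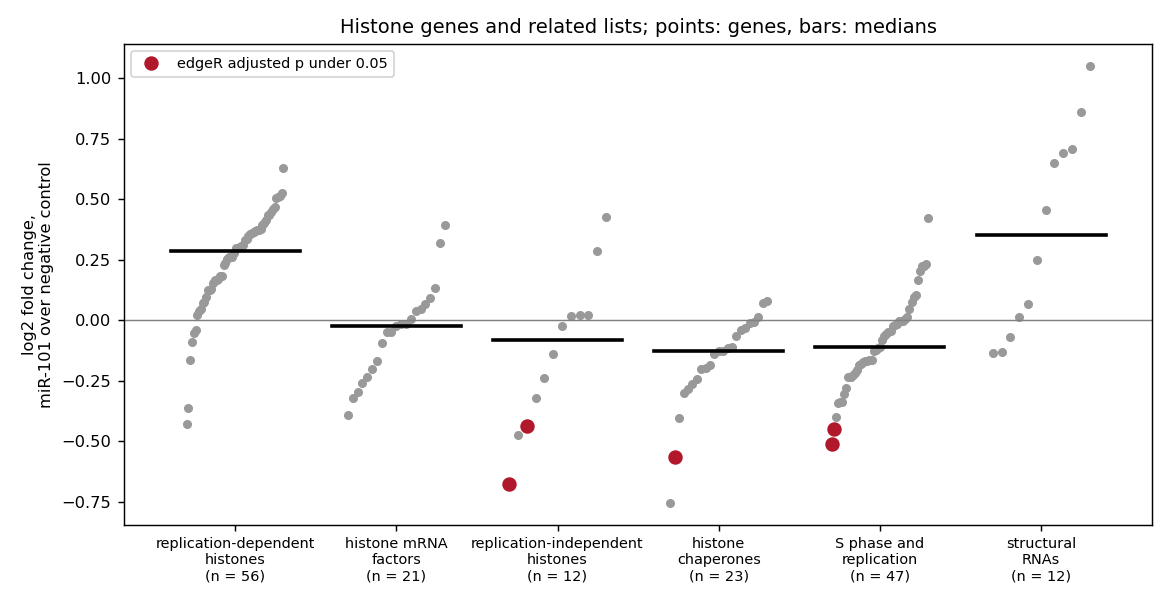
Log2 fold change, miR-101 over negative control, of each replication-dependent histone gene and of the genes of 5 related lists (points, ordered by value), with medians as bars and genes called by edgeR in red. The histone median lies at 0.29, those of the factor, replication-independent, chaperone and S-phase lists at -0.03, -0.08, -0.13 and -0.11, and the structural RNA median at 0.35.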

How the data were processed

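Total RNA of 8 cultures was sequenced. The deposited values are whole-number counts per gene, not normalised; TopHat2 2.0.14, StringTie 1.2.4, bcl2fastq 2.18.0.12 and hg38 are named in the submitters' processing notes. The counting tool, its annotation and its use of strand are not given in the sources, so near-identical or overlapping genes are uncertain. Members and gene lists were chosen with earlier results of these data known.

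Genes were tested with edgeR 4.0.16 (R 4.3.3, limma 3.58.1): filterByExpr, TMM factors, glmQLFit, glmQLFTest on the group, Benjamini-Hochberg adjustment over 15905 genes. CPM use TMM-adjusted library sizes. A pair ratio adds 0.01 CPM to each value. The script was tested on simulated data. Alternatives were DESeq2 1.42.0, limma-voom, other scalings, no filter, left-out libraries and a replicate block. Deviations of same-numbered libraries correlated across genes at r = 0.328, 0.425, 0.185 and 0.209, all above 0.1, so numbers were taken to pair the samples; the labels give 4 experiments but do not state which number is which. Some differently numbered libraries correlated more, miR-101 4 with control 3 at 0.391, miR-101 2 with control 1 at 0.374 and miR-101 1 with control 2 at 0.372.

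Named members were, in each class, the 3 with the highest CPM and those with the highest and lowest fold change, every called member, and all of HIST2, HIST3 and HIST4; of related lists, the called genes and up to 4 with the smallest p. Counting error sets only a lower limit to the spread. Sequences came from GENCODE 29 and RefSeq tables read with Python 3.11.15.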

Additional observations from a re-analysis of the deposited data

Results flagged for a closer look

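In 15 of 78 groups of 4 libraries tested (29 named members and 10 sums, in each treatment), 1 library lay farther from the rest than Dixon's 95% critical value of 0.829 allows. Chance marks about 1 in 20 of independent groups. Here the sums hold the named members and the groups of a treatment share their libraries, so the 15 cannot be set against that rate. Library miR-101 4 was high in 8 of the 15, control 4 high in 5 and control 3 low in 2. High in miR-101 4 were the H3 sum at 1600 CPM (881 to 960 CPM in the other 3 libraries) and the H4 sum at 1855 CPM (951 to 1002 CPM). HIST1H1B stood there at 707 CPM (383 to 418 CPM in the others) and HIST1H2AE at 289 CPM (168 to 184 CPM). HIST1H3B stood at 485 CPM (299 to 301 CPM) and HIST1H3G at 344 CPM (155 to 180 CPM). HIST1H4C stood at 379 CPM (154 to 174 CPM) and HIST1H4D at 424 CPM (186 to 205 CPM).

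High in control 4 were the HIST2 sum at 1142 CPM (860 to 888 CPM in the other 3 libraries), HIST1H1D at 177 CPM (88.8 to 102 CPM) and HIST1H2AE at 284 CPM (158 to 175 CPM). HIST1H2AL stood there at 17.6 CPM (7.64 to 8.62 CPM) and HIST1H2BD at 296 CPM (198 to 213 CPM). Low in control 3 were HIST1H2BJ at 107 CPM (156 to 162 CPM) and HIST3H2A at 29.1 CPM, where the others spanned 29.9 to 30.0 CPM. HIST1H2AE was high in library 4 of both groups.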

How the results depend on the processing

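Called members, 0 with edgeR, numbered 1 with DESeq2, 3 with the replicate block, 37 in libraries 1 and 2 alone, 4 without pair 4, and 0 to 4 with 1 library left out. Control 4 gave the 4 (HIST1H1C, HIST1H1D, HIST1H1E and HIST1H2BH) and miR-101 3 the 1 (HIST2H2AC). Over all genes, 525 higher and 528 lower became 838 and 868 with DESeq2, 883 and 793 with the block, 2534 and 2592 in libraries 1 and 2, 6 and 0 in libraries 3 and 4, and 106 and 67 with libraries 1 and 2 summed. Without pair 4, 802 were lower. With 1 library left out the counts were 258 to 670 higher and 227 to 749 lower.

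Calls in the replication-independent, chaperone and S-phase lists, 2, 1 and 2, became 4, 2 and 4 with DESeq2, 8, 5 and 18 in libraries 1 and 2, 0 in each list in libraries 3 and 4 or with libraries 1 and 2 summed, and 4, 2 and 4 without pair 4. Without a scaling factor the replication-independent and S-phase lists had 1 each, and without the 2 libraries richest in structural RNA 4 each. With the replicate block the replication-independent list had 4. With 1 library left out these lists had 1 to 3, 0 to 2 and 0 to 3. Histone mRNA factors and structural RNAs, 0 each, had 5 each in libraries 1 and 2. The factors had 0 to 1 with 1 library left out, and structural RNAs 1 without the 2 richest libraries. The HIST3 sum, -0.06 on the log2 scale, was -0.43 without its most abundant member.

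Some log2 fold changes near 0 changed sign. Left-out single libraries gave -0.18 to 0.28 for HIST1H2AE, -0.33 to 0.21 for HIST1H2AL, -0.089 to 0.28 for HIST1H3B, -0.067 to 0.13 for HIST1H3E, -0.079 to 0.33 for HIST1H3H, -0.093 to 0.47 for HIST1H4C, -0.066 to 0.45 for HIST1H4D, -0.21 to 0.30 for HIST1H4E and -0.23 to 0.24 for HIST2H2BF. In libraries 1 and 2 alone HIST1H2AL was 0.26, HIST1H3E -0.062, HIST1H4E 0.088 and HIST2H2BF 0.15. Without pair 4 HIST1H2AL was 0.049, HIST1H3E -0.090, HIST1H4E 0.14, HIST2H2BF 0.17, RNU4-1 -0.0035 and RNU12 -0.16. Without the 2 libraries richest in structural RNA HIST1H2AE was -0.24, HIST1H3B -0.026 and HIST1H3H -0.098. HIST1H3H was -0.023 in libraries 3 and 4. HIST1H4E was 0.012 with limma-voom and 0.014 with the block.

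The cause of these shifts was not tested, and settings without pair 4 or the 2 richest libraries were chosen after seeing the data. Under the 4 other tools or scalings and without the filter, 49 to 51 of 56 members were positive, with medians of 0.26 to 0.29.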
